A study of Mus musculus with 8 samples.

Results

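The 10 genes described here make up the killing and signalling equipment of cytotoxic lymphocytes: Gzma, Gzmb, Prf1, Nkg7, Ctsw, Cst7, Srgn, Xcl1, Ccl5 and Fasl. They were taken by gene symbol from the gene tables of 8 mouse thymocyte RNA-seq libraries, which list 13073 genes in at least 1 of the 2 systems studied. All 10 had a row in the in vivo tables, and 6 of the 10 had a row in the in vitro tables. Gzma, Gzmb, Ccl5 and Fasl had none in vitro. The in vitro tables list no gene with a mean count under 5, so for these 4 genes no level, limit or fold can be given there.

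Cytotoxic T and NK cells kill by releasing granules in which perforin and granzymes are held on the proteoglycan serglycin. Perforin opens a path through the target cell membrane, and granzymes cleave proteins inside the target. Fas ligand provides a separate route to cell death, while the chemokines XCL1 and CCL5 recruit dendritic cells and other leukocytes. In the thymus, strong T cell receptor signals direct some thymocytes to a CD4-CD8- agonist-selected fate whose progeny include intraepithelial lymphocytes of the gut, cells that carry many of these gene products.

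The study asked about BCL6, a transcriptional repressor, in this agonist-selected lineage. The control libraries, labelled WT, came from Bcl6fl/fl thymus and the KO-labelled libraries from Bcl6fl/fl Cd4cre thymus, so both groups carry floxed Bcl6 alleles, and Cre is driven by Cd4 regulatory sequences, which act from the CD4+CD8+ stage of T cell development. For the in vitro system, sorted CD4+CD8+ thymocytes were held for 24 h on anti-CD3 and anti-CD28 (8 µg/ml of each), and the cells that had become CD4-CD8- were sorted. For the in vivo system, CD4-CD8-CD5+TCRb+ thymocytes, labelled agonist-p, were sorted directly from mice. Each system had 2 WT-labelled libraries and 2 labelled KO. The sources used here give no mouse ages. The labels do not say that the libraries came from separate mice or cultures, so p-values measure the spread between these libraries, which may be technical. Novogene made the in vitro libraries and BGI Genomics the in vivo ones, so levels in the 2 systems are set side by side without a test.

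Total counts ranged from 14754440 to 23975636 per library. Bcl6 itself, the targeted gene, read 24.9 and 21.9 FPKM (a level corrected for transcript length and library depth) in the WT-labelled in vitro libraries and 64.6 and 61.0 FPKM in the KO-labelled ones. In vivo it read 11.5 and 13.9 FPKM in the WT-labelled libraries and 8.81 and 14.4 FPKM in the KO-labelled ones. Gene-level values do not resolve the floxed exons. In vitro Bcl6 was higher in the KO-labelled libraries, and in vivo the groups overlap, so these values cannot check the labels. Every direction below is therefore between the KO-labelled libraries and the WT-labelled ones. T cell markers were present throughout: 9 of the 12 had a row in each system, with a summed level of 1142 to 1325 FPKM in vitro and 1162 to 1415 FPKM in vivo. Cd4, whose protein the in vivo sort excluded, read 26.8 and 54.96 FPKM there in the WT-labelled libraries and 22.8 and 78.4 FPKM in the KO-labelled ones. These are bulk samples, in which fewer cells of a type and less RNA per cell cannot be told apart.

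Promoters of 3 of the genes are shown because these genes carry the main results: among the 10, Xcl1 and Nkg7 fell most in vitro, and Gzmb had the largest difference in vivo. Each window runs 5′ to 3′ on the gene's own strand from 250 bases before to 50 bases after the RefSeq start (GRCm38.p6). Xcl1 lies at chr1:164935473-164935772 (minus strand), Nkg7 at chr7:43436888-43437187 (plus strand) and Gzmb at chr14:56262285-56262584 (minus strand). Capitals mark every match, on either strand, to 6 motifs. TTCNNNGAA is a palindrome read by STAT factors and BCL6, and TTCCNNGAA is a stricter form of the same length. The others are TGTGGT (Runt), GGTGTG (T-box), TGANTCA (AP-1) and GGAAAA (NFAT).
Xcl1: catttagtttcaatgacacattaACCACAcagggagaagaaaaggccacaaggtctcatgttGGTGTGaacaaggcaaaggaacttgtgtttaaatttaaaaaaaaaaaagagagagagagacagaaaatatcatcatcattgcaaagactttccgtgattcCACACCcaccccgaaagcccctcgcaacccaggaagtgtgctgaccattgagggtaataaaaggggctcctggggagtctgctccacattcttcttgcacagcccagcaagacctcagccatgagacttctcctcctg
Nkg7: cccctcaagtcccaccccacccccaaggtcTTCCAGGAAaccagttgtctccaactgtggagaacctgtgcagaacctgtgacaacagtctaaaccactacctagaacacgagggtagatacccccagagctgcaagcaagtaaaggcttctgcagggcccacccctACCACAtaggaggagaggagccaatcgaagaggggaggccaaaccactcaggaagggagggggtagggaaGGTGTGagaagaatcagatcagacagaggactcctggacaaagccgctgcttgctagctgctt
Gzmb: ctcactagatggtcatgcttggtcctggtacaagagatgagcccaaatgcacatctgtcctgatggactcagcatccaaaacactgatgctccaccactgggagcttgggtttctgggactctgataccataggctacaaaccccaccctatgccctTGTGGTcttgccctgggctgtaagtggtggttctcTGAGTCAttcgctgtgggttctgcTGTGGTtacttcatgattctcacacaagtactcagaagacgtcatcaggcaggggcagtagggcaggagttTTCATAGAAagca
The Nkg7 window held TTCCAGGAA, with its first base 220 bases before the start, which matches both TTCNNNGAA and TTCCNNGAA. The Gzmb window held TTCNNNGAA only, as TTCATAGAA, just past the RefSeq start. The GENCODE gene model, whose coordinates are given below, starts at 56262260, outside this window. By that model the match lies upstream of the gene. The Xcl1 window held neither form, and held the T-box motif at 2 places. Of all 32851 mouse promoter windows in the table, 8.30% held TTCNNNGAA and 4.81% held TTCCNNGAA. RefSeq windows were matched for 8 of the 10 genes, not for Ctsw or Ccl5. The Runt motif was found in 7 of these 8, all but Fasl, and in 16.8% of all windows. The T-box motif was found in 3 of the 8 (Fasl, Nkg7 and Xcl1) and in 19.0% of all windows. The AP-1 motif was found in Cst7 and Gzmb and in 7.81% of all windows, and the NFAT motif in Fasl, Gzma and Srgn and in 23.4%. A match describes letters in the window, not a bound site.

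In the stimulated cells in vitro, the 6 genes with a row moved in opposite directions. Xcl1 and Nkg7 fell 4.48-fold and 2.83-fold in the KO-labelled libraries, Ctsw rose 2.76-fold, and smaller changes were measured for Prf1 and Cst7 (higher) and Srgn (lower). All 6 passed the threshold, an edgeR quasi-likelihood test with Benjamini-Hochberg adjustment over all 9658 genes tested, 3 upward and 3 downward. This comparison called 37.8% of all genes tested, 20.1% upward and 17.7% downward. The FPKM of the groups did not overlap for any of the 6, nor for 71.1% of all genes tested. The median log2 fold change of the 6 was 0.05, against -0.0028 for all genes tested.

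**Figure D1:**
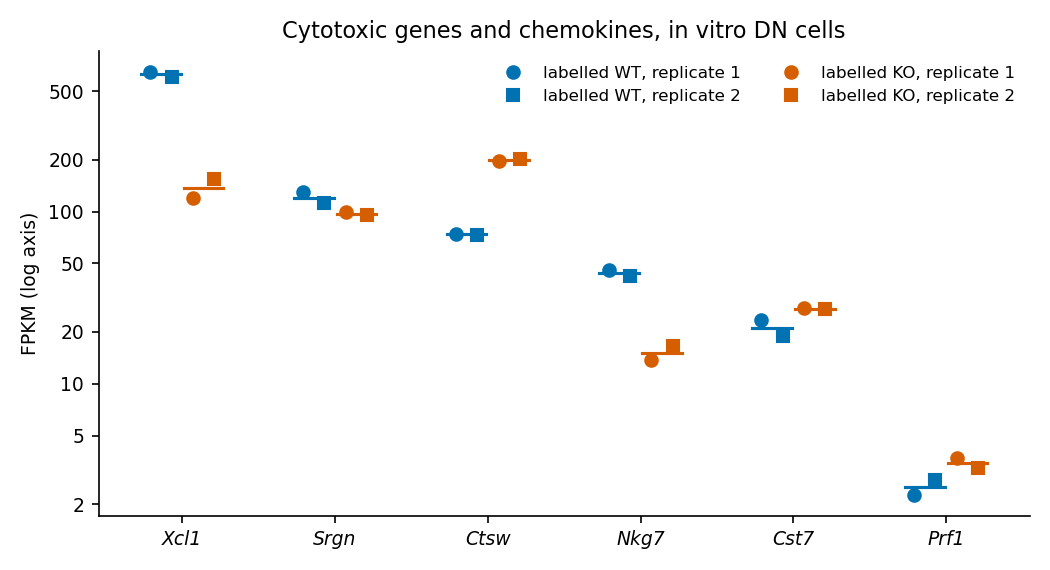
FPKM (vertical log axis) of the 6 genes with a row in the in vitro tables, with 1 point per library and a line at each group mean. Xcl1 lies at 606 FPKM or above in both WT-labelled libraries and at 154 FPKM or below in both labelled KO, while Ctsw shows the opposite order.

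Xcl1 encodes lymphotactin, a chemokine that attracts XCR1-bearing dendritic cells. Its gene lies at chr1:164931644-164935527 (GRCm38, minus strand). In vitro it read 648 and 606 FPKM in the WT-labelled libraries and 120.5 and 154 FPKM in the KO-labelled ones. The groups did not overlap and were far apart, with means of 627 ± 29.6 FPKM (SD, n = 2) and 137 ± 23.7 FPKM (SD, n = 2). The log2 fold change was -2.16 (SE 0.11), with an edgeR adjusted p of 7.55e-07. Among the 12133 genes listed in vitro, Xcl1 ranked 70 by mean FPKM, the highest of the 6. It alone made up 70.2% and 70.9% of the summed FPKM of the 6 in the WT-labelled libraries, and 26.2% and 30.8% in the KO-labelled ones. The sum of the 6 was 923 and 855 FPKM in the WT-labelled libraries and 460 and 499 FPKM in the KO-labelled ones. Without Xcl1 the order turned: the sum of the other 5 was 275 and 249.1 FPKM in the WT-labelled libraries and 340 and 345 FPKM in the KO-labelled ones. Xcl1 overlaps Gm20743, a transcript on the opposite strand with no row in either set of tables. Of the 50-base windows of the Xcl1 transcripts 10.8% also occur in Gm20743, so a small part of its reads could be split between them. No such window was shared with another gene for the other 9 genes.

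Nkg7 encodes a granule membrane protein needed for efficient degranulation, at chr7:43437073-43438249 (plus strand). It read 45.6 and 42.1 FPKM in the WT-labelled in vitro libraries and 13.7 and 16.6 FPKM in the KO-labelled ones. Both KO-labelled libraries were lower than both labelled WT, by more than the spread within either group. The log2 fold change was -1.501 (SE 0.12), with an edgeR adjusted p of 5.81e-06.

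Ctsw encodes cathepsin W, a cysteine protease of NK cells and cytotoxic T cells, at chr19:5465043-5468507 (minus strand). Its level was 74.1 and 73.3 FPKM in the WT-labelled in vitro libraries and 196 and 203 FPKM in the KO-labelled ones. The replicates lay close together and the groups did not overlap. The log2 fold change was 1.46 (SE 0.08), with an edgeR adjusted p of 9.9e-07. Ctsw shares 9 bp with Fibp on the opposite strand, and Fibp, at a log2 fold change of -0.09 (SE 0.09) and an adjusted p of 0.470 by edgeR, did not pass the threshold. Cst7 (chr2:150570415-150578944, plus strand) encodes cystatin F, an inhibitor of cysteine cathepsins, among them the cathepsin C that activates granzymes. It read 23.3 and 19.1 FPKM in the WT-labelled libraries and 27.4 and 27.0 FPKM in the KO-labelled ones. The groups were apart but close, at a log2 fold change of 0.38 (SE 0.12) and an adjusted p of 0.0260 by edgeR.

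Prf1 encodes perforin, the pore-forming protein of the granules, at chr10:61297833-61304680 (plus strand). It was the lowest of the 6 in every in vitro library, at 2.27 and 2.75 FPKM in the WT-labelled ones and 3.69 and 3.24 FPKM in the KO-labelled ones. The log2 fold change was 0.50 (SE 0.18), just past the threshold at an edgeR adjusted p of 0.0474. Srgn (chr10:62493833-62527451, minus strand) encodes serglycin, the proteoglycan on which granzymes and perforin are stored. It read 129.5 and 112 FPKM in the WT-labelled libraries and 99.1 and 95.4 FPKM in the KO-labelled ones. The groups did not overlap, and the log2 fold change was -0.28 (SE 0.09, edgeR adjusted p 0.0281).

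The calls of Prf1, Cst7 and Srgn depended on single libraries, while those of Xcl1, Nkg7 and Ctsw held in all 13 alternatives run. For Prf1 the edgeR adjusted p was 0.295 without WT replicate 1 and 0.196 without KO replicate 1, in a range of 0.0275 to 0.295 over its alternatives. For Cst7 leaving out WT replicate 2 gave 0.197, and it was 0.0746 without KO replicate 1, in a range of 0.00684 to 0.197. For Srgn leaving out WT replicate 1 gave 0.286, with 0.0605 without KO replicate 1 and 0.0803 without KO replicate 2, in a range of 0.00866 to 0.286. Directions held throughout these fits.

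The order of the 6 genes by FPKM, a scale corrected for length, differed between the groups and was the same in both libraries of a group. In the WT-labelled libraries it ran Xcl1, Srgn, Ctsw, Nkg7, Cst7 and Prf1. In the KO-labelled ones it ran Ctsw, Xcl1, Srgn, Cst7, Nkg7 and Prf1. Nkg7 and Cst7 thus changed places, and Ctsw moved from the third place to the first. Markers of NK cells summed to between 0.203 and 0.473 FPKM in the 4 in vitro libraries, with 2 of 10 listed and neither above the filter. Myeloid markers summed to between 0.432 and 1.22 FPKM there.

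In the sorted in vivo cells all 10 genes were listed and tested, and none passed the threshold in the edgeR test. Gzmb and Gzma had the largest differences: their mean FPKM was 2.47-fold and 2.12-fold as high in the KO-labelled libraries as in the WT-labelled ones. These were the 2 genes with an unadjusted p under 0.05, and DESeq2 called 1 of the 10, Gzmb. The in vivo comparison called 1.10% of the 10227 genes tested, 0.284% upward (29 genes) and 0.821% downward (84 genes). With DESeq2 the split was 260 genes upward and 245 downward. Of the 10 genes 9 had a positive log2 fold change and 1, Srgn, a negative one, with a median of 0.24 against -0.0036 for all genes tested. This count rested on WT replicate 2, the lowest library for each of the 10. Without it Prf1 (-0.13), Ctsw (-0.061), Xcl1 (-0.067) and Ccl5 (-0.0060) were negative as well. The groups did not overlap for 5 of the 10 (Gzma, Gzmb, Nkg7, Cst7 and Fasl), all higher in the KO-labelled libraries, as for 22.0% of all genes tested.

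**Figure D2:**
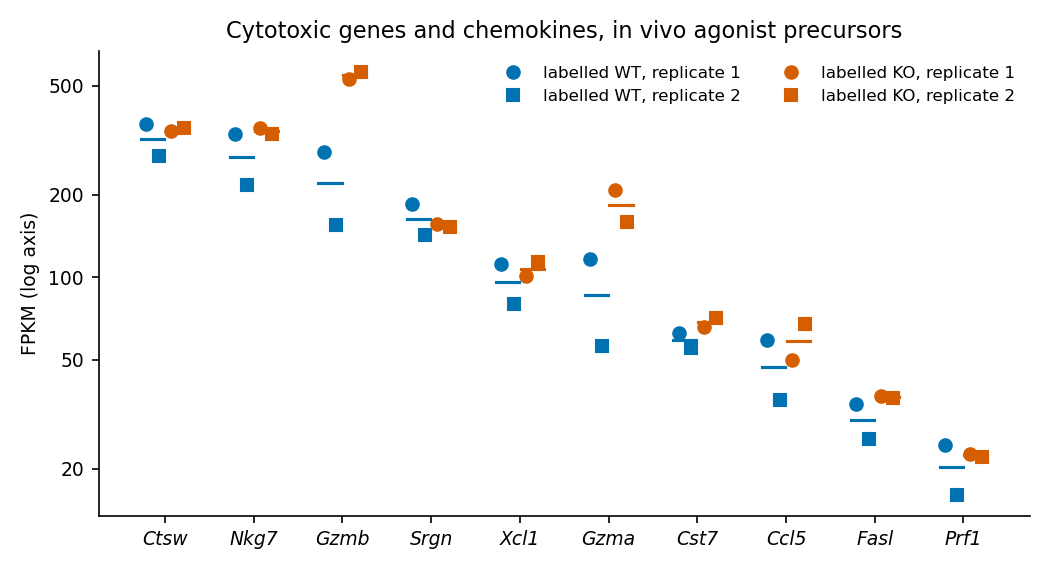
FPKM (vertical log axis) of the 10 genes in the 4 in vivo libraries, with 1 point per library and a line at each group mean. Gzmb and Gzma lie higher in both KO-labelled libraries, and WT replicate 2 is the lowest library for each of the 10 genes.

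Gzmb encodes granzyme B, the serine protease that starts apoptosis in target cells by cleaving after aspartate. It lies at chr14:56258838-56262260 (minus strand). In vivo it read 286 and 155 FPKM in the WT-labelled libraries and 530 and 561 FPKM in the KO-labelled ones. The groups did not overlap, but the WT-labelled libraries differed widely, with means of 220 ± 92.4 FPKM (SD, n = 2) and 545 ± 21.8 FPKM (SD, n = 2). The log2 fold change was 1.30 (SE 0.27), with an unadjusted p of 0.00259 and an edgeR adjusted p of 0.103. By mean FPKM Gzmb ranked 38 of the 12665 genes listed in vivo. It was the third of the 10 in both WT-labelled libraries, behind Ctsw and Nkg7, and the first in both labelled KO. Its share of the summed FPKM of the 10 was 18.2% and 14.6% in the WT-labelled libraries and 28.5% and 30.0% in the KO-labelled ones.

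Gzma encodes granzyme A, a tryptase-like granule protease, at chr13:113093825-113100981 (minus strand). It read 117 and 56.0 FPKM in the WT-labelled libraries and 208 and 159 FPKM in the KO-labelled ones. Both KO-labelled libraries were higher than both labelled WT, at a log2 fold change of 1.08 (SE 0.33), an unadjusted p of 0.0155 and an edgeR adjusted p of 0.201. Both granzyme differences moved with the 2 WT-labelled libraries. Without WT replicate 1 the log2 fold change was 1.81 for Gzmb (edgeR adjusted p 0.0104) and 1.71 for Gzma (edgeR adjusted p 0.0314). Without WT replicate 2 it was 0.93 for Gzmb (edgeR adjusted p 0.0619) and 0.65 for Gzma (edgeR adjusted p 0.266). Over all 12 alternatives the adjusted p ran from 0.000627 to 0.205 for Gzmb and from 0.000345 to 0.629 for Gzma, with a positive log2 fold change in each.

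Prf1 read 24.5 and 16.1 FPKM in the WT-labelled in vivo libraries and 22.7 and 22.2 FPKM in the KO-labelled ones. The groups overlapped, at a log2 fold change of 0.14 (SE 0.19) and an adjusted p of 0.853 by edgeR. It was again the lowest of the genes in every library. Nkg7 read 332 and 217 FPKM in the WT-labelled libraries and 349 and 333 FPKM in the KO-labelled ones. The groups were apart by a small margin, at a log2 fold change of 0.31 (SE 0.20) and an adjusted p of 0.600 by edgeR. Ctsw, the highest of the 10 in both WT-labelled libraries, read 361 and 277 FPKM there and 342 and 351 FPKM in the KO-labelled ones. Both values labelled KO lay between the WT-labelled ones, at a log2 fold change of 0.11 (SE 0.15) and an adjusted p of 0.836 by edgeR.

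Cst7 read 62.8 and 55.2 FPKM in the WT-labelled libraries and 66.1 and 71.0 FPKM in the KO-labelled ones, at a log2 fold change of 0.21 (SE 0.11) and an adjusted p of 0.484 by edgeR. Srgn read 184 and 143 FPKM in the WT-labelled libraries and 156 and 153 FPKM in the KO-labelled ones, at a log2 fold change of -0.09 (SE 0.14) and an adjusted p of 0.880 by edgeR. The groups of Cst7 did not overlap, and those of Srgn did.

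Xcl1 read 112 and 79.97 FPKM in the WT-labelled in vivo libraries and 101 and 113 FPKM in the KO-labelled ones. The groups overlapped, at a log2 fold change of 0.15 (SE 0.17) and an adjusted p of 0.805 by edgeR. Ccl5 (chr11:83525778-83530518, minus strand), a chemokine for T cells and macrophages, read 58.8 and 35.7 FPKM in the WT-labelled libraries and 50.003 and 67.4 FPKM in the KO-labelled ones. These values interleaved, at a log2 fold change of 0.30 (SE 0.25) and an adjusted p of 0.711 by edgeR. Fasl (chr1:161780689-161788495, minus strand), the death ligand for Fas, read 34.5 and 25.7 FPKM in the WT-labelled libraries and 37.0 and 36.3 FPKM in the KO-labelled ones. Its groups did not overlap, at a log2 fold change of 0.28 (SE 0.15) and an adjusted p of 0.505 by edgeR.

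WT replicate 2 was the lowest of the 4 in vivo libraries for 10 of the 10 genes, and for 32.2% of all genes tested. The summed FPKM of the 10 was 1573 in WT replicate 1, 1060 in WT replicate 2, 1861 in KO replicate 1 and 1867 in KO replicate 2. Without Gzmb the sum was 1287 and 905 FPKM in the WT-labelled libraries and 1331 and 1306 FPKM in the KO-labelled ones. The 9 genes other than Gzmb gave WT replicate 1 a sum close to those of the KO-labelled libraries. Gzma, 1 of these 9, was not close: it read 117 FPKM there and 208 and 159 FPKM in the KO-labelled libraries.

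**Figure D3:**
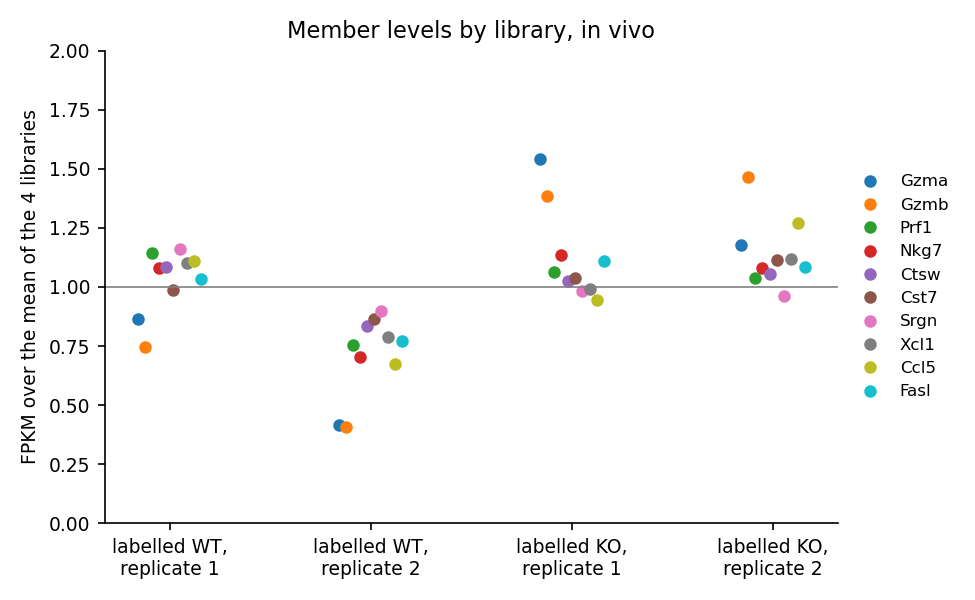
FPKM of each of the 10 genes divided by its mean over the 4 in vivo libraries (vertical axis, 1 is the mean), with 1 point per gene in each library. All 10 genes lie below 1 in WT replicate 2, and Gzma and Gzmb are the only 2 below 0.9 in WT replicate 1.

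Marker genes of other cells also varied between the in vivo libraries. NK cell markers, 9 of 10 listed, summed to 347 and 210 FPKM in the WT-labelled libraries and 345 and 325 FPKM in the KO-labelled ones. Their largest parts were Klrd1 (153, 89.9, 165 and 152 FPKM, in the same order) and Klrb1c (97.2, 62.2, 91.1 and 91.9 FPKM). The defining NK gene Ncr1 was at 0 in WT replicate 2 and at most 0.730 FPKM elsewhere. Eomes, also on that list, was under the filter. Of the 7 NK markers tested, 1 rose, Itga2, at a log2 fold change of 0.92, where 0.284% of all genes tested were called upward. The other 6 did not pass the threshold. Invariant NKT markers, all 5 listed, summed to 160 and 134 FPKM in the WT-labelled libraries and 158 and 141 FPKM in the KO-labelled ones. Klrb1c is on this list too, so its values above are a large part of this sum as well. The 2 sums are thus not separate readings. Of the gamma delta T cell list 2 of 11 had a row, and their means went opposite ways without passing the threshold: Sox13 averaged 18.2 FPKM in the WT-labelled libraries and 39.9 FPKM in the KO-labelled ones (edgeR adjusted p 0.105), and Blk 52.7 and 25.0 FPKM (edgeR adjusted p 0.271). Myeloid markers, 9 of 11 listed, summed to 153 and 80.6 FPKM against 344 and 172 FPKM, and B cell markers, 6 of 7 listed, to 103 and 31.3 FPKM against 274 and 104 FPKM. The part of these cells in the granzyme values was not tested.

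The difference between the 2 systems was tested over all 8 libraries for the 6 genes measured in both. Of these 3 passed the threshold: the log2 fold change of labelled KO over labelled WT was higher in vivo for Xcl1 and Nkg7 and lower in vivo for Ctsw. This test called 16.4% of the 9364 genes tested, 6.57% as higher in vivo and 9.81% as lower. The difference, in vivo minus in vitro on the log2 scale, was 2.34 (SE 0.23, edgeR adjusted p 0.000448) for Xcl1, 1.83 (SE 0.26, edgeR adjusted p 0.00174) for Nkg7 and -1.33 (SE 0.18, edgeR adjusted p 0.00131) for Ctsw. Each of the 3 held in all 16 alternatives. The difference was -0.34 (SE 0.28, edgeR adjusted p 0.435) for Prf1, -0.15 (SE 0.17, edgeR adjusted p 0.594) for Cst7 and 0.22 (SE 0.18, edgeR adjusted p 0.436) for Srgn, none of them past the threshold. For Prf1 it passed without WT replicate 2 of the in vivo libraries, at -0.63 (edgeR adjusted p 0.0461), and turned to 0.01 without WT replicate 1, in a range of adjusted p from 0.0461 to 0.973.

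**Figure D4:**
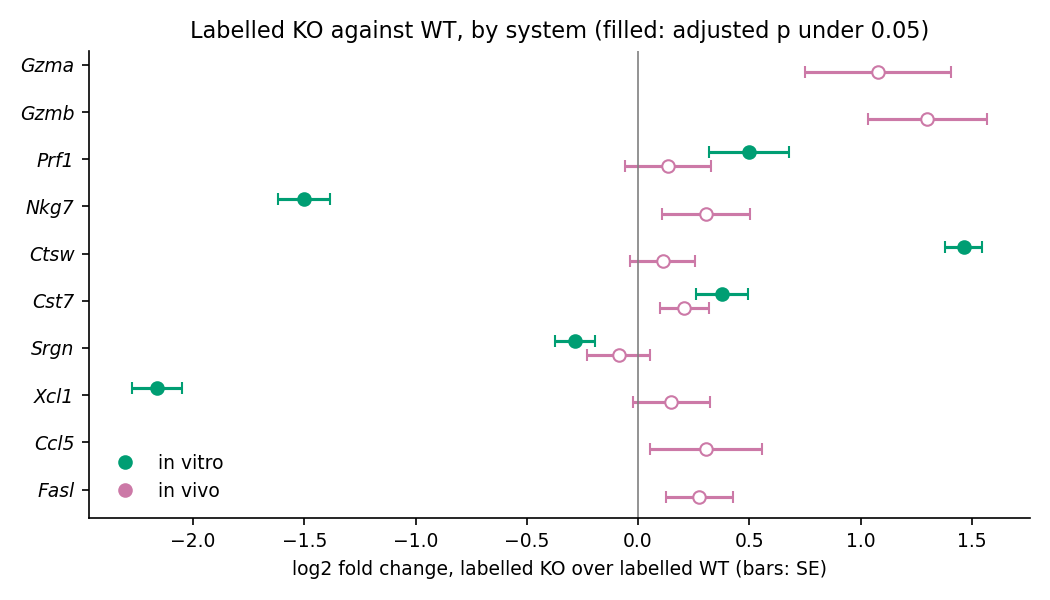
Log2 fold change of KO-labelled libraries over the WT-labelled ones (horizontal axis, bars are SE) for each gene in vitro (green) and in vivo (pink), filled where the edgeR adjusted p was under 0.05. Xcl1 at -2.16, Nkg7 at -1.501 and Ctsw at 1.46 lie far from 0 in vitro, and the in vivo values of the same genes lie between 0.11 and 0.31.

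Levels in the 2 systems are placed side by side here without a test. Xcl1 averaged 627 FPKM in the WT-labelled in vitro libraries and 96.0 FPKM in the in vivo ones. The other 5 genes had the opposite order in the WT-labelled libraries: 43.8 in vitro and 274 in vivo for Nkg7, 73.7 and 319 for Ctsw, 21.2 and 59.0 for Cst7, 2.51 and 20.3 for Prf1, and 121 and 164 FPKM for Srgn.

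Genes that act beside the 10 were counted by role. Each in vitro count below stands against the 20.1% of all tested genes called upward and the 17.7% called downward. Each count for the difference between systems stands against 16.4% of all genes tested for it, 6.57% higher in vivo and 9.81% lower. The granule exocytosis list holds the proteins that move, dock and fuse cytotoxic granules, and 16 of its 18 genes were tested in each system. In vitro 7 rose and 3 fell, with a median log2 fold change of 0.13, and in vivo none of the 16 passed the threshold, with a median of 0.04. Rab27a, the small GTPase that docks granules, read 12.8 and 14.4 FPKM in the WT-labelled in vitro libraries and 25.2 and 22.8 FPKM in the KO-labelled ones, a log2 fold change of 0.85 (SE 0.10). Its partners Sytl1 and Sytl2, synaptotagmin-like proteins, rose by 1.62 (SE 0.15) and 1.63 (SE 0.15) on the log2 scale. Unc13d, which primes granules for fusion, rose by 0.48 (SE 0.08). Stx11, a syntaxin needed for granule fusion in NK cells and T cells, fell from 7.64 and 7.73 FPKM to 1.71 and 2.93 FPKM, a log2 fold change of -1.68 (SE 0.18). Lamp1, the membrane protein whose surface exposure marks degranulation, had a log2 fold change of -0.22 (SE 0.08), and Ap3b1, an adaptor subunit for sorting to lysosomes, one of -0.47 (SE 0.08). The difference between systems passed for 4 of the 16: the log2 fold change of labelled KO over labelled WT was higher in vivo for Stx11 and lower in vivo for Rab27a, Sytl1 and Sytl2. Sytl2 passed the filter in vitro only through the KO-labelled libraries, so the filter itself required it to be higher there.

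**Figure D5:**
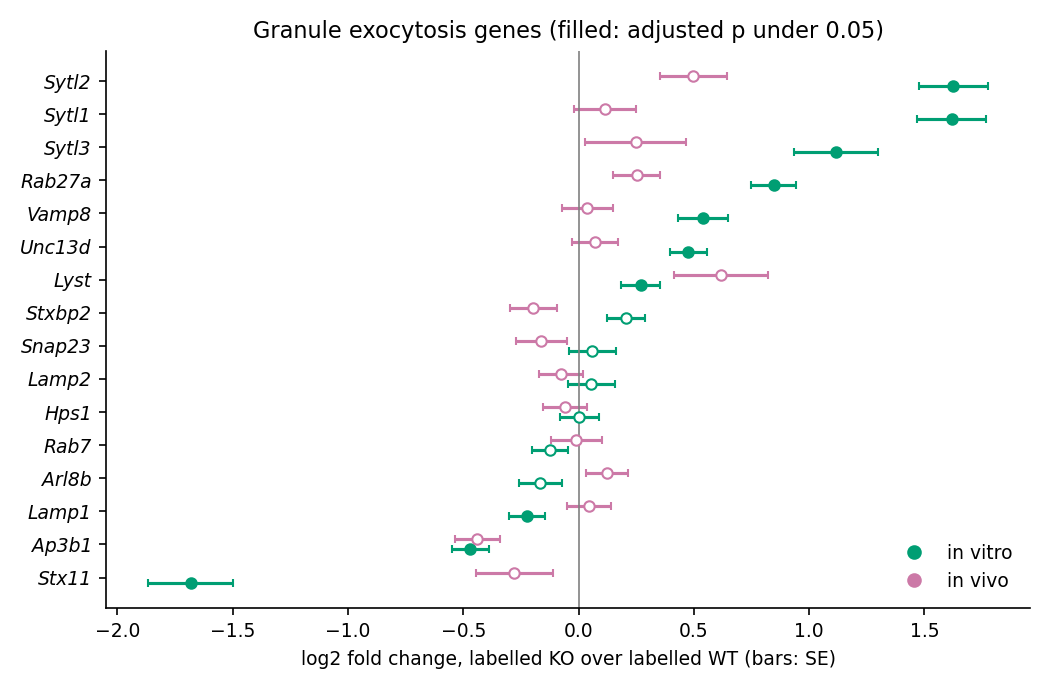
Log2 fold change of KO-labelled libraries over the WT-labelled ones (horizontal axis, bars are SE) for the 16 granule exocytosis genes tested in both systems, filled where the edgeR adjusted p was under 0.05. In vitro (green) the values run from -1.68 for Stx11 to 1.63 for Sytl2, and no in vivo point (pink) is filled.

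Of the granule proteases and their inhibitors, 10 of 14 were tested in vitro, where 5 rose and none fell, with a median of 0.32. Ctsc, the cathepsin that activates granzymes, rose from 12.6 and 12.1 FPKM to 18.1 and 15.4 FPKM, a log2 fold change of 0.46 (SE 0.10). Serpinb9, the inhibitor of granzyme B, rose by 1.35 (SE 0.25) and passed the filter only through the KO-labelled libraries. Ctss (cathepsin S) rose by 1.17 (SE 0.24) and the serpin Serpinb6b by 0.83 (SE 0.22), all on the log2 scale. In vivo 13 of the 14 were tested, none passed the threshold, and the median was 0.14. Serpinb9 read 19.4 and 15.01 FPKM in the WT-labelled in vivo libraries and 25.0 and 23.0 FPKM in the KO-labelled ones, without overlap, at an edgeR adjusted p of 0.190. Genes of this list whose in vivo groups did not overlap went both ways, some higher and some lower in the KO-labelled libraries. Of the 10 genes of this list tested for the difference between systems, Ctss alone passed, at -0.97.

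Of 8 granzymes beyond the pair described, few had a row. In vitro Gzmm alone of 8 had a row, with 24 counts over the WT-labelled libraries and 30 over the KO-labelled ones, a ratio per total count of 1.31 (exact 95% binomial interval 0.741 to 2.34, counting error only). In vivo Gzmc was the 1 tested of the 8, and it is the annotated neighbour of Gzmb on chromosome 14. It read 7.89 and 5.14 FPKM in the WT-labelled libraries and 12.5 and 11.7 FPKM in the KO-labelled ones. The groups did not overlap, at a log2 fold change of 0.88 (SE 0.24) and an adjusted p of 0.169 by edgeR. Gzmk, which lies beside Gzma, had no row in either system.

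The enzymes that build the sugar chains of serglycin moved both ways in vitro, with 3 of 13 tested genes higher and 2 lower and a median of 0.09. Xylt1, which starts the chains, rose by 0.75 (SE 0.15) on the log2 scale, passing the filter only through the KO-labelled libraries. The chondroitin sulfotransferase genes Chst12 and Chst11 moved apart, at log2 fold changes of 0.70 (SE 0.16) and -0.56 (SE 0.15). Chsy1, which extends chondroitin, had a log2 fold change of -0.31 (SE 0.08). In vivo none of the 14 tested passed the threshold, and the median was 0.09. The in vivo set also holds a listed gene that is not such an enzyme and was under the filter in vitro.

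Of 16 other chemokines 3 were tested in vitro and 1 rose, Ccl4, an inflammatory chemokine. It read 0.568 and 0.464 FPKM in the WT-labelled libraries and 1.45 and 1.74 FPKM in the KO-labelled ones, a log2 fold change of 1.63 (SE 0.42), and it passed the filter only through the KO-labelled libraries. In vivo 6 were tested and none passed the threshold, with Ccl3 at -0.73 and Ccl4 at 0.09 on the log2 scale. Among receptors of the ligands, Fas rose in vitro by 0.33 (SE 0.12) on the log2 scale, and in vivo its log2 fold change was -0.22, short of the threshold. Xcr1, the receptor of XCL1, had 11 counts over the WT-labelled in vitro libraries and 76 over the KO-labelled ones, a ratio per total count of 7.25 (exact 95% binomial interval 3.83 to 15.1, counting error only). The single libraries held 9 and 2 counts against 53 and 23, so replicates differed widely, and the spread between them was not tested.

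Of the death ligand and Fas pathway genes 12 were tested in vitro, where 5 rose and 1 fell, with a median of 0.29. Ltb, a lymphotoxin subunit, rose by 1.40 (SE 0.17), Cflar, an inhibitor of caspase-8 activation, by 1.04 (SE 0.12) and Tnfsf10, the ligand TRAIL, by 0.69 (SE 0.14) on the log2 scale. Bid, which links caspase-8 to mitochondria, had a log2 fold change of -0.50 (SE 0.10). In vivo none of the 15 tested passed the threshold, and the median was 0.03. The difference between systems passed for 2 of the 12 tested, Ltb at -1.64 and Cflar at -0.83. Ifng, on the same list, had no row in vitro and read 18.7 and 6.81 FPKM in the WT-labelled in vivo libraries and 12.4 and 17.4 FPKM in the KO-labelled ones.

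Transcription factors that act on cytotoxic genes gave 3 rises and 1 fall among 4 tested in vitro, where 37.8% of all tested genes were called. Runx3, a Runt factor of cytotoxic T cells, read 0.358 and 0.428 FPKM in the WT-labelled libraries and 1.78 and 2.10 FPKM in the KO-labelled ones, a log2 fold change of 2.35 (SE 0.21). It passed the filter only through the KO-labelled libraries. Id2, an inhibitor of E proteins, rose by 1.89 (SE 0.19) on the log2 scale, and Bhlhe40 had a log2 fold change of -1.01 (SE 0.21). The T-box genes Tbx21 and Eomes had no row in vitro. In vivo Tbx21 read 72.2 and 43.7 FPKM in the WT-labelled libraries and 73.8 and 64.5 FPKM in the KO-labelled ones, lowest in WT replicate 2 as the 10 genes were. Runx3 read 71.4 and 61.7 FPKM against 75.9 and 74.0 FPKM, and none of the 7 factors tested in vivo passed the threshold. Eomes was under the filter in vivo, with 111 counts over the WT-labelled libraries and 32 over the KO-labelled ones, a ratio per total count of 0.298 (exact 95% binomial interval 0.194 to 0.445, counting error only). The difference between systems passed for 3 of the 4 tested, Runx3 at -2.16, Id2 at -1.67 and Runx1, another Runt factor, at -0.62.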

How the data were processed

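For every listed gene the authors deposited a whole-number read count. They also deposited its FPKM. According to the submitters' processing notes the build was mm10 and the tools were RSEM, DESeq2, Subread, featureCounts, Bowtie2 and Trim Galore 0.4.4, with no role named for any. Which annotation and strand setting were used is not given in the sources. Without a strand setting, reads from a gene and an overlapping gene on the opposite strand cannot be told apart. The deposited counts had been filtered, the lowest mean over a system's libraries being 5.

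Groups and replicate numbers were taken from the labels. A gene entered the tests when 2 or more libraries had an FPKM of 1 or more. The deposited counts were tested with the quasi-likelihood test of edgeR 4.0.16 (R 4.3.3, TMM normalization), in each system's 4 libraries alone. For the difference between systems, 1 fit held the 4 group means of all 8 libraries. Tests were two-sided. A gene was called at an adjusted p under 0.05 (Benjamini-Hochberg, over all genes tested). The SE was taken from the F statistic as |log2 fold change| divided by its root. Summed counts of genes under the filter were compared as a ratio per total count with an exact Clopper-Pearson interval. The code was tested on simulated data. The 2 replicates of a group were never alike within sampling noise (chi-square per degree of freedom 11.1 to 22.8), so all were counted singly. Alternatives were upper quartile scaling, DESeq2 1.42.0, no filter, filterByExpr, limma 3.58.1 on log2(FPKM + 1) or log2(FPKM + 0.1), a replicate block, a robust fit, all 8 libraries together, and each library left out in turn.

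The members and the gene lists were chosen with earlier results of these data known. Named were all 10 members, up to 4 genes per list and direction by size of change among those past the threshold, 15 genes of known role whatever their values, Bcl6, and genes beside or overlapping a member. Cd4, Klrd1, Klrb1c, Ncr1, Itga2, Sox13, Blk, Zeb2 and Prdm1 were picked after their values were seen. Values of 2 listed genes are not reported here. Gene coordinates are from GENCODE vM21 (GRCm38) and promoters from RefSeq (GRCm38.p6).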

Additional observations from a re-analysis of the deposited data

Results flagged for a closer look

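For 3 genes the log2 fold change of labelled KO over labelled WT differed between the 2 systems by a test of the difference itself over all 8 libraries (edgeR, Benjamini-Hochberg adjusted over 9364 genes). For Nkg7 the difference, in vivo minus in vitro, was 1.83 (adjusted p 0.00174), since the gene fell in vitro and did not pass the threshold in vivo. For Ctsw it was -1.33 (adjusted p 0.00131), with a rise in vitro. For Xcl1 it was 2.34 (adjusted p 0.000448), with a fall in vitro. System, sequencing company and table coincide and cannot be told apart. Groups of 2 libraries are too small for a test of single outlying libraries.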

How the results depend on the processing

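With 2 libraries per group the spread rests on few libraries, and the in vivo calls depended on the tool and on single libraries. In vitro 6 genes were called, and 3 to 5 with 1 library left out (3 without KO replicate 1). In vivo 0 were called, 1 with DESeq2 (Gzmb, adjusted p 0.0416) and 0 to 2 with 1 library left out. With the replicate block 2 were called in vivo, Gzmb at 1.36 (edgeR adjusted p 0.000627) and Gzma at 1.15 (edgeR adjusted p 0.000345). In vitro the replicate block ended the calls of Srgn (edgeR adjusted p 0.0658) and Prf1 (edgeR adjusted p 0.0586). The labels do not say that equal numbers mark shared mice or days. The deviations of same-numbered libraries correlated at -0.31 in vitro and 0.46 in vivo. With 2 numbers per system this does not settle whether they pair the libraries. For the difference 3 genes were called, and 3 to 4 with 1 library left out.

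Over all genes in vivo 113 were called, 68 and 75 by limma with pseudocounts of 1 and 0.1, 505 by DESeq2, 545 with all 8 libraries in the fit, 1078 with the replicate block, and 7 (without WT replicate 2) to 279 (without KO replicate 2) with 1 library left out. Over all genes the difference called 1534, and 533 (without in vitro WT replicate 1) to 1816 with 1 library left out. The cause was not tested.

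Leaving out 1 library in vivo gave log2 fold changes from -0.13 (without WT replicate 2) to 0.47 (without WT replicate 1) for Prf1, -0.061 to 0.32 for Ctsw, -0.067 to 0.42 for Xcl1 and -0.0060 to 0.71 for Ccl5, likewise, and from -0.26 (without WT replicate 2) to 0.11 (without WT replicate 1) for Srgn, so their directions turned, none of them called in any of these fits. The difference for Prf1 ran from -0.63 without in vivo WT replicate 2, where it passed the threshold, to 0.012 without WT replicate 1. Prf1 in vitro also lost its call with upper quartile scaling (0.0519), DESeq2 (0.117), no filter (0.0587), filterByExpr (0.0569) and all 8 libraries (0.115), Cst7 with DESeq2 (0.0562) and Srgn with all 8 libraries (0.119), all adjusted p. With all 8 libraries only the 6 genes listed in both systems could be fitted. Rescaling FPKM to TPM kept the order of the levels in the 2 systems for all 6 genes.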

Other observations

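Under the filter in vitro, Prdm1, which encodes the repressor BLIMP1, had 2 counts over the libraries labelled WT and 56 over those labelled KO, a ratio per total count of 29.4 (exact 95% binomial interval 7.76 to 248.6, counting error only). Zeb2, a repressor that acts with T-bet in effector T cells, had 767 counts over the libraries labelled WT and 279 over those labelled KO. The ratio was 0.382 (exact 95% binomial interval 0.332 to 0.438, counting error only). In vivo Zeb2 had 294 and 296 counts, a ratio of 1.04 (exact 95% binomial interval 0.882 to 1.23, counting error only). The single in vivo libraries held 141 and 153 counts (labelled WT) against 210 and 86 (labelled KO). The KO-labelled replicates thus differed widely, and the spread between them was not tested. Ccdc85b, an annotated neighbour of Ctsw, had a log2 fold change of -0.32 (SE 0.09) in vitro (edgeR adjusted p 0.0219), opposite in sign to that of Ctsw. Efemp2, the neighbour on the other side, was under the filter in vitro and went the same way as Ctsw. It read 0.737 and 0.372 FPKM in the WT-labelled libraries and 0.833 and 1.22 FPKM in the KO-labelled ones.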
